A study of Mus musculus with 6 samples.

Results

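The unfolded protein response (UPR) is the signalling by which a cell adjusts to misfolded protein in the endoplasmic reticulum (ER). The genes described here encode the ER sensors of this response and the transcription factors and regulators that act after them. They were chosen by gene symbol, from what their products do, with earlier results of these data known. There were 10 of them among the 16060 rows of the expression table, and all 10 were among the 13321 rows that passed the filter on low values. They belong to the IRE1 arm (Ern1 and Xbp1), the ATF6 arm (Atf6 and Atf6b), the PERK arm (Eif2ak3, Atf4, Atf3, Ddit3 and Ppp1r15a) and the OASIS family of ER-bound factors (Creb3l2).

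Hippocampal RNA of adult male C57BL/6 mice was sequenced, with 3 libraries of the Control group, 3 libraries of the methamphetamine (MA) group and 1 library per mouse. The control mice were given saline, and the dose of the MA mice escalated from 5 mg/kg in week 1 to 10 mg/kg in week 2 and 15 mg/kg in week 3. Behavioral tests preceded sacrifice. For RNA extraction and library preparation, Qiagen and TruSeq kits are given in the sample labels, but RNA-Bee and NEB Next Ultra in the methods of the study. The comparison asks which hippocampal transcripts differ between mice given repeated MA and mice given saline.

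Each gene had 1 deposited value per library, named as RPKM (reads scaled by gene length and library total) but lying on a log scale, which was read as log2(RPKM + 1). Levels and differences below are on this log2 scale unless they are called back-transformed. The libraries shared nearly one distribution of values: when sorted, the 41 highest values were the same in all 6 libraries, and no rank differed by more than 0.051 between libraries. A level is therefore tied to a rank and cannot pass the common highest value of 12.3. A difference on this scale understates the change of genes with low values. How many reads stand behind a library is unknown, since the table holds no totals. The labels do not name batches, and whether reads were counted by strand is not given in the sources used here.

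The groups are those of the sample labels and column names, and a doubt about them bears on every direction below. The immediate early genes Fos, Egr1, Arc and Nr4a1 were lower in the columns named MA, by differences of −1.61, −1.46, −1.80 and −1.45 on the log2 scale, with limma adjusted p from 0.0181 to 0.0315 and all MA libraries below all Control libraries. The study gives these genes the opposite direction, by sequencing and by qPCR. It also does so by sequencing for Sdf2l1, a gene of the UPR described below. Which is right could not be settled from the sources used here, so that lower and higher refer throughout to the libraries as labelled, and every direction would turn if the column names were exchanged.

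The library MA 3 stood apart from the others before any gene was compared. Its mean correlation across genes with the other libraries of its group was 0.978, against 0.984 to 0.993 for the other libraries, and genes are not independent replicates. The sample weight that limma estimated for it was 0.194, whereas the other libraries had weights from 0.937 to 2.45. Its lowest value was 0.000206, held by 397 rows, where the other libraries had a lowest value of 0 in 259 to 437 rows. Values without it are therefore given beside many of the results below.

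Markers of other cell types also moved with the groups. The summed back-transformed level of 8 choroid plexus markers was 65.8, 174 and 421 in Control 1 to 3 and 1779, 2310 and 5084 in MA 1 to 3. All 8 had a higher mean in the libraries labelled MA, 5 of them with an adjusted p under 0.05 in limma, and Ttr was the most abundant. Ttr makes up most of this sum and held the highest value of the library in MA 3, so that its level there is at the ceiling. The other 7 markers summed to 8.11, 7.92 and 10.5 in the Control libraries and 35.1, 55.8 and 50.4 in the MA libraries. The 5 red blood cell markers, led by Hba-a2, summed to 1599, 2024 and 1911 in the Control libraries and 4378, 3319 and 3849 in the MA libraries, and 3 of 5 passed the threshold. Smaller shifts without overlap were seen for meninges, led by Dcn (13.9, 14.8 and 16.7 against 33.5, 30.8 and 20.8), where each of the other 4 markers overlapped between groups and their sum was 8.10, 8.09 and 9.23 against 10.1, 9.39 and 9.50, and for oligodendrocyte precursors, led by Pdgfra (5.86, 6.50 and 6.26 against 9.54, 9.90 and 6.54), where each of the 2 markers by itself overlapped. Markers of hippocampal neurons, led by Neurod6, summed to 169, 143 and 125 in the Control libraries and 113, 125 and 119 in the MA libraries, and the 4 markers other than Neurod6 overlapped between groups. Thalamic markers, led by Prkcd, were higher in MA 1 and MA 2 (53.3 and 65.0) than in MA 3 (22.1) and the Control libraries (22.4 to 30.2). The sums for neurons, astrocytes, oligodendrocytes, microglia, endothelium and striatum overlapped between the groups. Without the most abundant gene of its list, however, the sum for microglia was lower in all MA libraries and that for endothelium higher. In both lists 4 of the 5 remaining markers overlapped by themselves. The microglia sums came as near as 62.8 in Control 1 and 62.7 in MA 1. Of all lists, 0 markers were at 0 in a library. The part of these shifts in the results below was not tested. In bulk tissue, fewer cells of a type and less RNA per cell cannot be told apart.

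The ER membrane carries the sensors IRE1, ATF6 and PERK, which the chaperone BiP holds in check while protein folding keeps pace. Once released, IRE1 splices Xbp1 mRNA into the form that encodes an active factor, ATF6 moves to the Golgi where proteases free its transcription factor part, and PERK phosphorylates the initiation factor eIF2, which slows translation in general while ATF4 is made. Together these factors raise chaperones and enzymes of protein folding, secretion, degradation and amino acid supply, and in neurons the same signals also serve protein synthesis at synapses.

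Xbp1 was lower in the libraries labelled MA and was the member that passed the threshold over all genes. 8 of the 10 genes had a lower mean in the MA group, Ern1 and Atf6b being the exceptions. The median difference over the 10 genes was −0.20, and over all tested genes it was −0.010. In the PERK arm 5 of 5 genes had a lower mean, with a median of −0.23.

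An adjusted p under 0.05 in limma was reached by 1 of 10 members, against 0.263% of all tested genes (35 genes). With a lower mean in the MA group it was reached by the same 1 member, against 0.0976% of all tested genes (13 genes). An unadjusted p under 0.05 was reached by 2 of 10 (Xbp1 and Atf4), both lower in the MA group, where 10.4% of all tested genes reached it in either direction and 5.46% with a lower mean. Every MA library lay below every Control library for 3 of 10 (Xbp1, Atf4 and Creb3l2), against 10.2% of all tested genes. The opposite order was found for 0 of 10, against 7.32%. Without MA 3, the genes with an unadjusted p under 0.05 and a lower mean were 5 of 10 (Xbp1, Atf4, Atf3, Ddit3 and Creb3l2), against 11.4% of all tested genes. Xbp1 was then the 1 member with an adjusted p under 0.05, against 0.743% of all tested genes with such a p and a lower mean (99 genes).

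**Figure D1:**
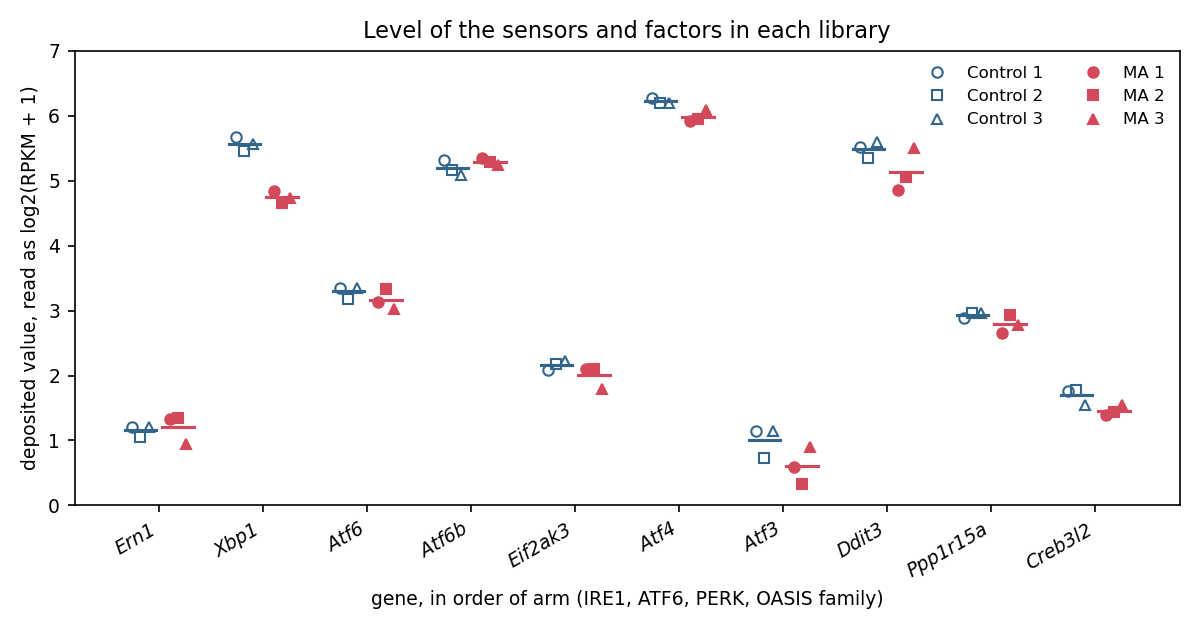
Level of each of the 10 genes in every library, on the y axis as the deposited value read as log2(RPKM + 1), with Control libraries as open symbols, MA libraries as filled symbols and group means as lines. Xbp1 lies between 5.46 and 5.67 in the Control libraries and between 4.66 and 4.84 in the MA libraries, whereas for Ddit3 the library MA 3 sits among the Control libraries.

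Xbp1 encodes the transcription factor that IRE1 activates, which drives genes of ER folding and ER-associated degradation. Its level was 5.67, 5.46 and 5.57 in Control 1 to 3, and 4.84, 4.66 and 4.73 in MA 1 to 3. The groups did not overlap, and the gap between the lowest Control and the highest MA library was wider than the spread within either group. Back-transformed, this is 46.4 ± 3.36 in the Control group and 25.8 ± 1.64 in the MA group (SD, n = 3 each). The difference was −0.82 with a standard error of 0.09 (95% interval −1.03 to −0.61, limma adjusted p = 0.0315). This is 1.77-fold lower in the MA group on the scale of RPKM + 1. Only 0.293% of tested genes had a more negative difference. Leaving out a library kept the difference between −0.87 and −0.77, but the adjusted p was 0.142 without Control 1, 0.0767 without Control 2, 0.115 without Control 3, 0.0524 without MA 1, 0.115 without MA 2 and 0.0251 without MA 3. It was 0.0637 with no filter on low values and 0.106 with the replicate number as a block.

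Ern1 encodes IRE1 itself, the kinase and endoribonuclease that cuts Xbp1 mRNA. It was expressed at a low level of 1.20, 1.05 and 1.21 in the Control libraries and 1.33, 1.35 and 0.95 in the MA libraries. MA 1 and MA 2 were above the Control libraries and MA 3 was the lowest of all, so the groups overlapped. The difference was 0.06 with a 95% interval of −0.27 to 0.38 (limma adjusted p = 0.933). Without MA 3 it was 0.19 (adjusted p = 0.347), and without MA 1 or MA 2 its sign turned. Within each library Xbp1 exceeded Ern1 by 4.46, 4.41 and 4.36 in the Control group and by 3.50, 3.31 and 3.78 in the MA group. This ratio was lower in all 3 MA libraries, by a difference of −0.88 that was largest without MA 3 and smallest, at −0.77, without MA 2, and the exact two-sided permutation test gave p = 0.1, the smallest that 3 against 3 libraries allow (adjusted p = 0.4 over 5 pairs of genes).

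Of the IRE1 partners, 5 of 6 genes listed were tested and 0 passed the adjusted or the unadjusted threshold in limma, with a median difference of −0.03 and 4 of 5 lower. Traf2, the adaptor that links IRE1 to JNK signalling, differed by −0.25 (95% interval −0.55 to 0.05), and the kinase gene Map3k5 that follows it by −0.17 (−0.54 to 0.21). In both, MA 3 lay among or above the Control libraries. The difference of Map3k5 was −0.025 without MA 1. Traf2 and Map3k5 without MA 3 had differences of −0.35 and −0.33, with unadjusted p of 0.0140 and 0.0135 in limma and adjusted p of 0.124 and 0.122, and the median of the 5 genes was −0.17. Tmbim6, an ER membrane inhibitor of IRE1, was highly expressed and differed by −0.01 (−0.20 to 0.18), and by 0.03 without MA 3. Bloc1s1, whose mRNA is a known substrate of IRE1, differed by −0.03 (−0.17 without MA 3 and 0.12 without MA 2), and 720 of its exonic bases overlap Rdh5 on the same strand, so that reads of these genes may have been split between them.

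Xbp1 (ENSMUSG00000020484) lies at chr11:5520659-5525893 on the plus strand of GRCm38, and Ern1 (ENSMUSG00000020715) at chr11:106394650-106487852 on the minus strand. The stretch that IRE1 removes from Xbp1 mRNA is shown because the spliced and unspliced forms differ by it alone. Each cut falls after the third base of the heptamer CNGCAGC, and in the Xbp1 transcript of 2129 bases 1 stretch of at most 60 bases lies between such cuts. It is 26 bases long, in coding exon 4 of 5 at chr11:5524279-5524304, bases 815 to 840 of the transcript, and it is present in 3 of 4 annotated transcripts. As 26 leaves a remainder of 2 when divided by 3, its removal shifts the reading frame. Capitals mark the removed bases, with 12 bases on either side.
Xbp1: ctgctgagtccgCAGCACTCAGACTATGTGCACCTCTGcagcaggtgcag
Values per gene add both forms, so they do not show Xbp1 splicing, nor do they show cleavage of ATF6 or phosphorylation of PERK.

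The ATF6 arm did not pass the threshold in either gene. Atf6 and Atf6b encode related ER-anchored factors whose released parts bind ER stress response elements, ATF6 being the stronger activator. Atf6 was measured at 3.35, 3.18 and 3.35 in the Control libraries and at 3.14, 3.33 and 3.03 in the MA libraries. MA 1 and MA 3 were the lowest of all and MA 2 was level with Control 1 and Control 3. The difference of −0.13 had a 95% interval of −0.39 to 0.13 (limma adjusted p = 0.744). Leaving out a library moved it from −0.21 without MA 2 to −0.06 without MA 3.

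Atf6b was the more abundant of the pair, at 5.32, 5.16 and 5.09 in Control 1 to 3 and 5.35, 5.28 and 5.23 in MA 1 to 3. The groups overlapped through Control 1. The difference was 0.10, with an interval from −0.11 to 0.31 (limma adjusted p = 0.756), and it ran from 0.05 without Control 3 to 0.16 without Control 1. Atf6 stood below Atf6b by −1.90 ± 0.14 in the Control group and by −2.12 ± 0.14 in the MA group (SD of the ratio within a library, n = 3 each). The ratio overlapped between groups, with a difference of −0.23 (−0.31 to −0.15 with 1 library left out) and an exact permutation p = 0.3. Atf6 (ENSMUSG00000026663) maps to chr1:170704674-170867771 on the minus strand, and Atf6b (ENSMUSG00000015461) to chr17:34647146-34655074 on the plus strand.

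Creb3l2 belongs to the OASIS family, whose members are cut by the same Golgi proteases as ATF6 and which support secretion. Its values were 1.76, 1.78 and 1.55 in the Control libraries and 1.39, 1.45 and 1.55 in the MA libraries. All MA libraries were below all Control libraries, but MA 3 missed Control 3 only in the third decimal (1.547 against 1.551). The difference was −0.24 with a standard error of 0.11 (95% interval −0.50 to 0.02, limma adjusted p = 0.522), and it ran from −0.31 without Control 3 to −0.20 without Control 2. Creb3l2 (ENSMUSG00000038648) lies at chr6:37327255-37442146 on the minus strand.

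Among the genes that process or assist ATF6 and the OASIS factors, 8 of 10 were tested, 0 passed the adjusted threshold, 5 had a lower mean, and the median difference was −0.05. Nfya, a subunit of the NF-Y complex that binds CCAAT beside ATF6, was 3.08, 3.14 and 3.11 in the Control libraries and 2.58, 2.51 and 2.61 in the MA libraries. The groups were well apart, with a difference of −0.54 (95% interval −0.75 to −0.34), and the limma adjusted p was 0.0783. It was 0.0328 without MA 3 and 0.00982 with sample weights, and 0.194 to 0.361 without another library. Over all tested genes, 257 passed the adjusted threshold without MA 3 and 586 with sample weights, against 35 with all libraries unweighted. The partner subunits Nfyb and Nfyc differed by −0.05 and −0.08 (−0.10 to −0.02 and −0.22 to 0.08 with 1 library left out), and are named for comparison after their values were seen. Mbtps1, the protease that makes the first cut in ATF6, was 0.21 higher (0.01 to 0.40, adjusted p = 0.458), with all MA libraries above all Control libraries. Creb3l1 differed by 0.31 (−0.09 to 0.72) and Creb3 by 0.09 (−0.10 to 0.27), both with a higher mean in the MA group, whereas Creb3l2 had a lower one. Without MA 3 these differences were 0.15 for Creb3l1 and 0.05 for Creb3. Creb3 shares 360 exonic bases with Tln1 on the other strand.

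In the PERK arm all 5 means were lower in the MA group and 0 of 5 passed the adjusted threshold. Eif2ak3 encodes PERK, the kinase of eIF2 in the ER membrane. Its level was 2.09, 2.17 and 2.23 in Control 1 to 3 and 2.11, 2.10 and 1.80 in MA 1 to 3. MA 1 and MA 2 lay within the Control range and MA 3 alone was below it. The difference was −0.16 (95% interval −0.44 to 0.12, limma adjusted p = 0.704), and it ran from −0.21 without MA 1 to −0.06 without MA 3. Eif2ak3 (ENSMUSG00000031668) lies at chr6:70844515-70905245 on the plus strand, and 485 of its exonic bases are shared with Gm43292 on the other strand, so that reads of the pair cannot be told apart without strand.

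Atf4 encodes the factor whose translation increases when eIF2 is phosphorylated, and which drives genes of amino acid supply and redox balance. It was the most abundant of the 10 genes, at 6.28, 6.19 and 6.19 in the Control libraries and 5.91, 5.95 and 6.09 in the MA libraries. All MA libraries were below all Control libraries, MA 3 being the nearest. The difference was −0.23 with a standard error of 0.08 and a 95% interval of −0.42 to −0.04, which lies below 0. Its unadjusted p in limma was 0.0218, but the adjusted p was 0.383. With sample weights, which give MA 3 little weight, the difference was −0.26 and the adjusted p was 0.0476, in a range of 0.0476 to 0.837 over the alternatives. With these weights 586 of all tested genes passed the adjusted threshold, against 35 without them. Without MA 3 the difference was −0.29 (adjusted p = 0.0708). Atf4 (ENSMUSG00000042406) lies at chr15:80255184-80257541 on the plus strand.

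Ddit3 encodes CHOP, a factor induced by ATF4 and known for promoting cell death under lasting ER stress. Its level was 5.52, 5.35 and 5.60 in Control 1 to 3, and 4.86, 5.05 and 5.50 in MA 1 to 3. MA 1 and MA 2 were below every Control library, and MA 3 was above Control 2, so the groups overlapped. The difference was −0.36 with a standard error of 0.16 (95% interval −0.74 to 0.03, limma adjusted p = 0.516). Single libraries weighed on it, as it was −0.54 without MA 3 (adjusted p = 0.0552) and −0.22 without MA 1 (adjusted p = 0.747). Ddit3 relative to Atf4 within a library was −0.75, −0.84 and −0.59 in the Control group and −1.05, −0.90 and −0.59 in the MA group. These ratios overlapped, with a difference of −0.12 (exact permutation p = 0.4), which was −0.25 without MA 3 and −0.019 without MA 1. Ddit3 (ENSMUSG00000025408) lies at chr10:127290774-127296288 on the plus strand. It shares 105 exonic bases on the same strand with another annotated gene of the same symbol, and 68 on the other strand with Mars, so its value is uncertain by the reads of these stretches.

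Atf3 encodes a stress-induced factor that follows ATF4 and is also an immediate early gene of active neurons. It had the lowest level of the 10 genes, 1.14, 0.73 and 1.15 in the Control libraries and 0.60, 0.32 and 0.90 in the MA libraries. MA 3 was above Control 2, and MA 2 was the lowest of all. The difference was −0.40 with a standard error of 0.19 (95% interval −0.84 to 0.04, limma adjusted p = 0.521). It was −0.55 without MA 3 (adjusted p = 0.136) and −0.26 without MA 2 (adjusted p = 0.781). The filter minimum was reached in 5 of 6 libraries. On a scale with a pseudocount of 0.1 or 0.01 in place of 1, the difference of Atf3 was −0.88 or −1.02, as its values are low. Atf3 (ENSMUSG00000026628) lies at chr1:191170296-191218039 on the minus strand.

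Ppp1r15a encodes GADD34, the regulatory subunit by which phosphatase 1 removes the phosphate from eIF2 and ends the arrest of translation. Its values were 2.89, 2.96 and 2.96 in the Control libraries and 2.66, 2.94 and 2.78 in the MA libraries. MA 2 lay within the Control range, whereas MA 1 and MA 3 were below it. The difference was −0.14 (95% interval −0.39 to 0.10, limma adjusted p = 0.692), with −0.22 without MA 2 and −0.08 without MA 1. Its constitutive counterpart Ppp1r15b differed by −0.32 (−0.55 to −0.09, adjusted p = 0.344), with all MA libraries below all Control libraries. Ppp1r15b shares 640 exonic bases with Gm26616 on the other strand. The ratio of Ppp1r15a to Ppp1r15b overlapped between groups, with a difference of 0.17 (exact permutation p = 0.3), which was 0.07 without MA 2 and 0.30 without MA 1. Ppp1r15a (ENSMUSG00000040435) lies at chr7:45522916-45526268 on the minus strand and shares 12 exonic bases with Tulp2 on the other strand.

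The other eIF2 kinases, eIF2 and eIF2B subunits and regulators were 12 genes, all tested. None passed the adjusted threshold in limma (0 of 12), 2 had an unadjusted p under 0.05 with a lower mean and 1 with a higher mean (5.46% and 4.99% of all tested genes), and the median difference was −0.05. Without MA 3 the unadjusted counts were 4 lower and 1 higher, against 11.4% and 11.9% of all tested genes. With all 6 libraries, those lower were Ppp1r15b and Nck1, an adaptor that brings phosphatase 1 to eIF2, with −0.29 (95% interval −0.49 to −0.09). Eif2b2, a subunit of the exchange factor that eIF2 phosphorylation inhibits, was higher by 0.43 (0.20 to 0.65, limma adjusted p = 0.203). Its adjusted p was 0.0337 with sample weights, where 586 of all tested genes passed. Its level was 5.59, 5.69 and 5.54 in the Control libraries and 5.87, 6.10 and 6.13 in the MA libraries. Eif2b4, of the same complex, differed by 0.27 (−0.01 to 0.55; 0.18 without Control 3) with overlapping groups, and it shares 204 exonic bases with Snx17 on the other strand.

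**Figure D2:**
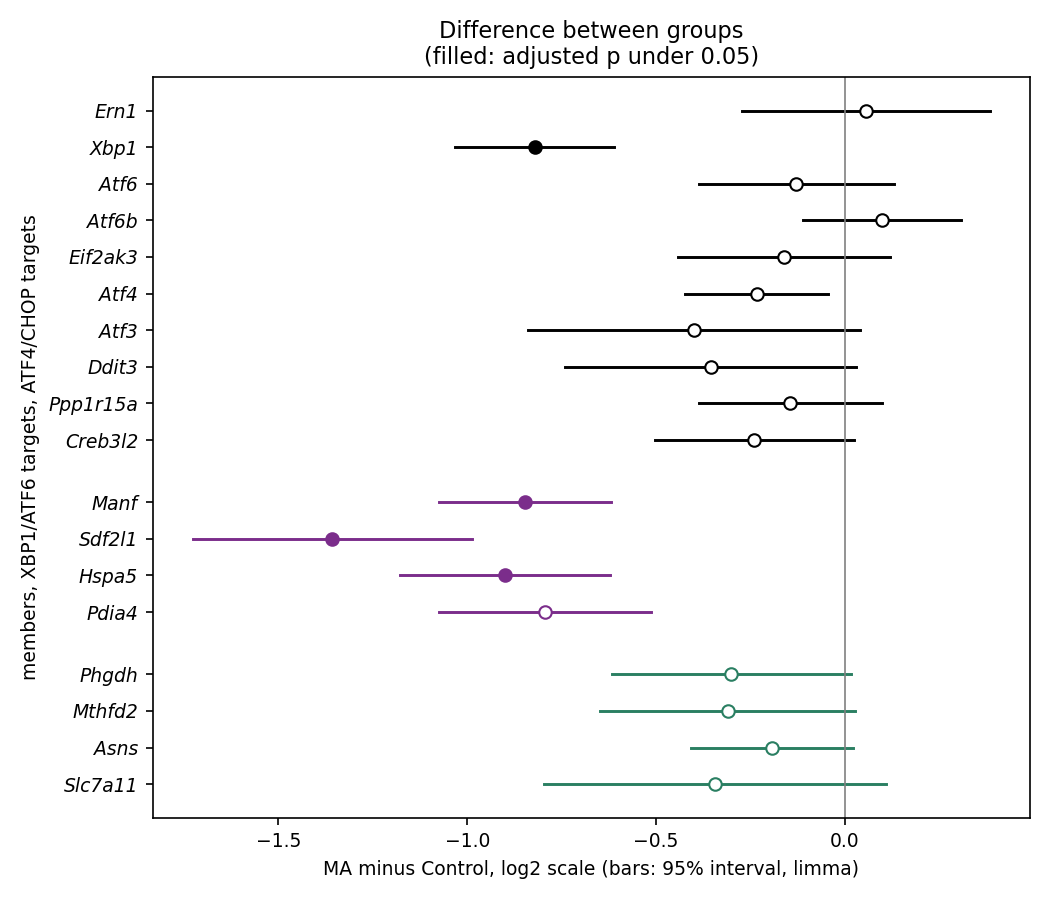
Difference between MA and Control on the log2 scale (x axis) for the 10 genes (black), 4 XBP1 and ATF6 targets (purple) and 4 ATF4 and CHOP targets (green), with 95% intervals from limma and filled points for an adjusted p under 0.05. The intervals of Xbp1 and Atf4 lie below 0, and those of the other 8 members include 0.

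The 10 genes differed widely in abundance, and the values are per length, so they can be ordered. The mean over 6 libraries was 6.10 for Atf4, 5.31 for Ddit3, 5.24 for Atf6b, 5.15 for Xbp1, 3.23 for Atf6, 2.86 for Ppp1r15a, 2.08 for Eif2ak3, 1.58 for Creb3l2, 1.18 for Ern1 and 0.81 for Atf3. Factors stood both at the top of the order (Atf4) and at its foot (Atf3), and of the sensors Atf6 was more abundant than Eif2ak3 and Ern1. Among Ddit3, Atf6b and Xbp1 the order changed with the group. Atf6b was below Xbp1 in 3 of 3 Control libraries and above it in 3 of 3 MA libraries, and Ddit3 exceeded Atf6b in 3 of 3 Control libraries but in 1 of 3 MA libraries, so the mean over all libraries does not order these genes. Ern1 exceeded Atf3 in 6 of 6 libraries, but by 0.37 with an SD of 0.42. All other neighbours kept their order in 6 of 6 libraries, and among them Creb3l2 exceeded Ern1 by 0.40 (SD 0.28).

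Most targets of XBP1 and ATF6 had a lower mean in the libraries labelled MA. Of 26 genes of ER folding, transport and degradation, 25 had a lower mean, as had 7025 of all 13321 tested genes. An unadjusted p under 0.05 in limma with a lower mean was reached by 16 (5.46% of all tested genes). In 16, all MA libraries lay below all Control libraries (10.2%). The list was written with earlier results of these data known, so these counts are a description and not independent support. The median difference was −0.30, against −0.010 over all tested genes. An adjusted p under 0.05 was reached by 3 genes: Hspa5, Manf and Sdf2l1. Without MA 3 the genes past the adjusted threshold, all lower, were 7 of 26 and the median was −0.32, but the genes past it with a lower mean then rose from 13 to 99 over the whole table too.

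Hspa5 encodes BiP, the ER chaperone that binds all UPR sensors. It was 7.43, 7.01 and 7.34 in the Control libraries and 6.43, 6.36 and 6.29 in the MA libraries. The groups were apart, with a difference of −0.90 and a standard error of 0.12 (limma adjusted p = 0.0403). Within a library Xbp1 stood below Hspa5 by −1.77, −1.55 and −1.78 in the Control group and by −1.59, −1.70 and −1.57 in the MA group. That ratio overlapped between groups, with a difference of 0.08 (exact permutation p = 0.4) that ran from 0.04 to 0.15 with 1 library left out.

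Sdf2l1, a cofactor of BiP, was lower still in the libraries labelled MA, at 5.29, 4.71 and 4.92 in the Control libraries and 3.49, 3.59 and 3.78 in the MA libraries. The difference was −1.36 with a standard error of 0.16 (limma adjusted p = 0.0315), or 2.56-fold lower on the scale of RPKM + 1. Manf, a secreted ER stress protein with neurotrophic effects, was lower by 1.80-fold on that scale, with a difference of −0.85 (adjusted p = 0.0315). It shares 14 exonic bases with Rbm15b on the same strand, and 146 with Dcaf1 and 166 with 4930524O07Rik on the other. Pdia4, a protein disulfide isomerase, had a difference of −0.79 and an adjusted p of 0.0628 (0.0252 without MA 3), with all MA libraries below all Control libraries. The calls of Hspa5, Manf and Sdf2l1 were lost with no filter on low values, with the replicate number as a block and without any 1 of Control 1, Control 2, Control 3, MA 1 or MA 2, where 0 pathway genes passed. That of Hspa5 was also lost with a pseudocount of 0.01 (adjusted p = 0.0518) and without the variance trend (0.0591). The differences were less affected than the calls, and were unchanged with no filter and with the block. With 1 library left out they were −1.03 to −0.81 for Hspa5, −0.93 to −0.76 for Manf and −1.49 to −1.20 for Sdf2l1. Without MA 3 the pathway genes that passed were 9, while 257 of all tested genes passed.

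The promoters of these targets were compared with those of the 10 genes, because ATF6 binds the ER stress response element, CCAAT and CCACG 9 bases apart, together with NF-Y. Windows of 250 bases before and 50 after the gene start came from RefSeq on GRCm38.p6, and both strands were searched. The element was in 0.119% of all 32851 windows, or in 37 of 27025 genes (0.137%). It was in 9 of the 21 target genes with a window and in 0 of the 9 members with a window, Atf6 having no window. The list was made of known XBP1 and ATF6 targets, so a higher share there is not independent support. The 9 genes are named for the match, and some of them after their values were seen. Each stretch below reads along the strand of its gene, before the RefSeq gene start, with the element in capitals, which read CGTGG first where it is on the other strand. The first base of the element is at −65 from the gene start in Hspa5 (chr2:34772020-34772048 for the stretch, plus strand), −126 in Creld2 (chr15:88819515-88819543, plus), −98 in Pdia6 (chr12:17266486-17266514, plus), −162 in Calr (chr8:84847070-84847098, minus), −156 in Derl3 (chr10:75893237-75893265, plus), −105 in Dnajc3 (chr14:118937822-118937850, plus), −212 in Hsp90b1 (chr10:86705633-86705661, minus), −44 in Syvn1 (chr19:6046527-6046555, plus) and −145 in Canx (chr11:50325795-50325823, minus).
Hspa5: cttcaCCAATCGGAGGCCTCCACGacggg
Creld2: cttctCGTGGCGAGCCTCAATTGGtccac
Pdia6: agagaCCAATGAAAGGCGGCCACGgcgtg
Calr: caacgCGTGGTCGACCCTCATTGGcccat
Derl3: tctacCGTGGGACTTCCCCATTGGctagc
Dnajc3: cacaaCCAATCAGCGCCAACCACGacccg
Hsp90b1: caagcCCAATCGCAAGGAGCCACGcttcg
Syvn1: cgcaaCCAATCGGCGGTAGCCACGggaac
Canx: attgaCCAATCACCACGCTCCACGaagaa
In the order shown, the differences were −0.90, −0.87, −0.68, −0.41, −0.35, −0.33, −0.23, −0.14 and 0.01, so the same element stood before genes with large differences and before Canx, which had a difference near 0 (0.19 without MA 3). The median was −0.35 over these 9 genes and −0.29 over the 12 targets with a window but without the element, 1 gene of either kind having an adjusted p under 0.05. A second element of Hsp90b1 at −107 is not shown. The shorter UPRE core TGACGTGG was in 0.676% of windows (0.714% of genes) and in 0 members and 0 of the 21 targets.

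Targets of ATF4 and CHOP showed smaller differences. Of 27 genes listed, 22 were tested, 16 had a lower mean, and 0 reached an adjusted or an unadjusted p under 0.05 in limma, with a median difference of −0.07. Slc7a5 and Fgf21 were not analysed here. The enzymes of serine and one-carbon metabolism Phgdh and Mthfd2 differed by −0.30 (95% interval −0.62 to 0.02) and −0.31 (−0.65 to 0.03). Single libraries moved both, Phgdh from −0.41 without MA 3 to −0.15 without MA 2 and Mthfd2 from −0.43 without MA 2 to −0.20 without MA 1. Asparagine synthetase, Asns, differed by −0.19 (−0.41 to 0.02), and the cystine transporter Slc7a11 by −0.34 (−0.80 to 0.11), with overlapping groups. Without MA 3 the count with an unadjusted p under 0.05 was 3 lower and 1 higher of 22, near or below the shares of 11.4% and 11.9% over all tested genes. Cebpb, named after its values were seen, differed by −0.41 with all libraries (limma adjusted p = 0.692), MA 3 being above every Control library. Its difference was −0.80 without MA 3, with an adjusted p under 0.05 (as for 257 of all tested genes), and −0.20 without MA 1. The difference of Slc7a11 was −0.15 without MA 3 and −0.53 without MA 1. Whether the 2 sets of targets differ in their response was not tested.

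The motif TGATGCAA, to which ATF4 binds with C/EBP factors, was in 0.895% of all windows, or 1.03% of genes. It was in 1 of the 9 members with a window (Atf3) and in 4 of 20 ATF4 and CHOP targets with a window (Aars, Chac1, Nupr1 and Slc7a11). The matches of Atf3 and Slc7a11 are shown since ATF4 is upstream of both genes. They start at −110 in Atf3 (chr1:191183425-191183454, minus strand, motif on the other strand and so reading TTGCATCA) and at −66 in Slc7a11 (chr3:50443661-50443690, minus strand), whose second match, at −47 on the other strand, is not shown.
Atf3: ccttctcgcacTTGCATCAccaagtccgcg
Slc7a11: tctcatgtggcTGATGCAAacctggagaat
The element TGACGTCA, bound by ATF and CREB factors, was in 1.79% of windows (2.03% of genes) and in 1 member, Ppp1r15a, at −12. A match describes the letters of a window and is not a binding site.

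**Figure D3:**
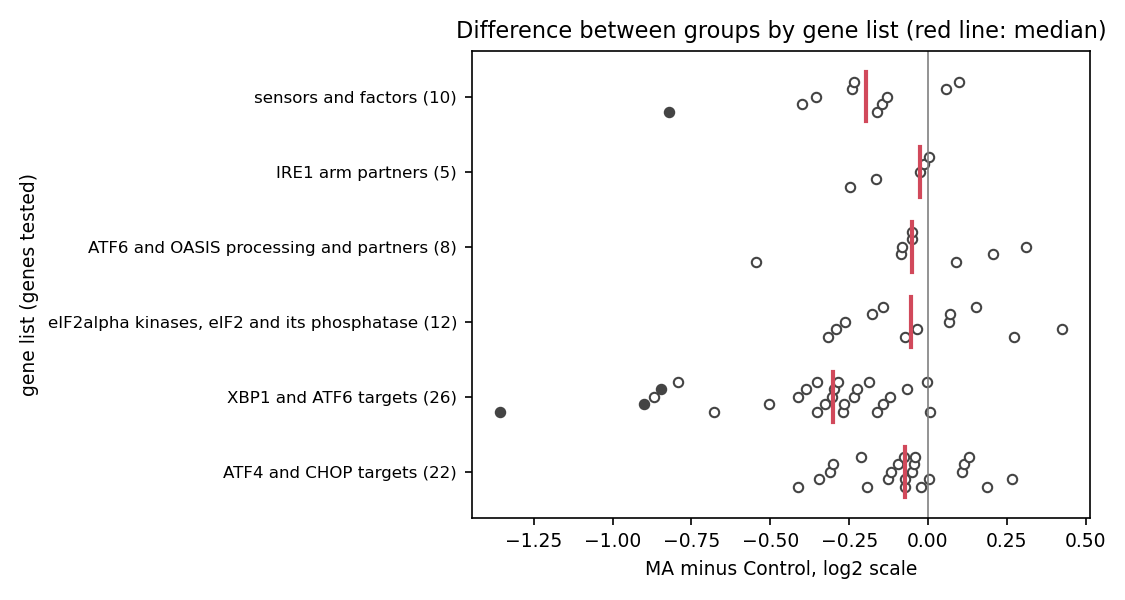
Difference between MA and Control on the log2 scale (x axis) for every tested gene of each list (y axis, number tested in brackets), with filled points for an adjusted p under 0.05 in limma and red lines for medians. The median is −0.20 for the 10 sensors and factors, −0.30 for XBP1 and ATF6 targets and −0.07 for ATF4 and CHOP targets.

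The genes whose values over the 6 libraries were most like Xbp1 were Zscan26 (Pearson r = 0.998), Nos3 (0.997), Fcho2 (0.997), Ptma (0.996) and Prickle1 (0.996). The 6 libraries form 2 groups that differ in Xbp1, so these values are a description without a p. After the group means were subtracted, r was 0.964, 0.922, 0.929, 0.911 and 0.922 in the same order. The genes were picked for the highest r among all tested genes, so these values too are high in part by that choice. Their differences between groups ran from −0.16 for Zscan26 to −0.49 for Nos3, and 0 of the 5 passed the adjusted threshold. Zscan26 and Nos3 share exonic bases with genes on the other strand.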

How the data were processed

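The authors deposited 1 table of log2 values named as RPKM, with 16031 distinct Ensembl identifiers and the same highest value, 12.3, in all 6 libraries. The log base and the offset of 1 were inferred from the values. The paper's methods name Hisat2 and featureCounts, whereas the submitters' processing notes list Bowtie 0.12.2, mm8 and mm9, and which build made the table is not given in the sources used here. Locations are those of GENCODE M21 on GRCm38, matched by identifier (15987 of 16031).

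Rows were tested if the value, back-transformed, reached 0.5 in 3 or more of the 6 libraries. The test was the moderated linear model of limma (version 3.58.1, R version 4.3.3; lmFit and eBayes, variance trend on), MA minus Control, two-sided, with Benjamini-Hochberg adjustment over all tested rows. The model was tested on simulated data. Ratios within a library were compared by exact two-sided permutation tests, adjusted over 5 pairs. Genes named by rule were all members and up to 4 genes per pathway list (past the adjusted threshold, then by unadjusted p). They also included the 5 genes most correlated with Xbp1 and the most abundant gene of the marker lists said to be led by it. Named outside this rule were the immediate early genes, Nfyb, Nfyc, Cebpb, Acacb, genes with a promoter match, overlapping genes and listed genes not analysed. The members and lists were chosen with earlier results of these data known.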

Additional observations from a re-analysis of the deposited data

How the results depend on the processing

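The 35 genes called between the groups became 20 with a minimum mean of 5, 3 with no filter, 586 with sample weights, 15 with the replicate block, and 0 to 257 when 1 library was left out. Members called, 1 in the report, were 0 with no filter, 2 with sample weights, 0 with the replicate block and 0 to 1 without a library. Members with an unadjusted p under 0.05 were 5 with sample weights, 3 with the replicate block and 1 to 5 without a library. Over all tested genes such a p was also reached more often without MA 3. There the shares were 11.4% with a lower and 11.9% with a higher mean, against 5.46% and 4.99% with all libraries. The shares under the other alternatives are not given here. Other pathway genes called were 0 with no filter, 12 with sample weights, 0 with the replicate block and 0 to 9 without a library. The Ern1 difference was −0.0053 without MA 1, −0.015 without MA 2 and 0.19 without MA 3. The other 9 members kept the sign of their difference under every alternative in which they were tested. With no filter, a minimum mean of 5, no variance trend or the replicate block the differences are unchanged, so no sign could turn there. The labels do not say that same-numbered libraries were paired. Their deviations from the group means correlated at −0.197, −0.242 and −0.337. With 3 libraries per group, these values cannot decide whether the libraries were paired or shared a batch. The causes were not tested. The depth is unknown, so what it limits cannot be given.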

Other observations

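The members did not all move alike in the library MA 3. Relative to the Control mean, Ern1, Atf6 and Eif2ak3 were lower there than in any other library, by −0.21, −0.26 and −0.36 on the log2 scale. Ddit3, Atf3, Atf4 and Creb3l2 were nearer to the Control mean in MA 3 (0.01, −0.10, −0.13 and −0.15) than in MA 1 (−0.63, −0.41, −0.31 and −0.31) or MA 2 (−0.44, −0.68, −0.27 and −0.25). Ppp1r15a fitted neither pattern, as it was −0.28 in MA 1, −0.0015 in MA 2 and −0.15 in MA 3. Atf6b was above the Control mean in all MA libraries, by 0.16, 0.09 and 0.04 in MA 1 to 3. Xbp1 was low in all 3 MA libraries, at −0.73, −0.90 and −0.84. This pattern was noticed after the values were seen, and it rests on 1 library.

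The ER stress response element was also looked up in all tested genes, a step added after the data were seen. It was in the window of 19 tested genes, of which 9 are the targets shown above with their sequences. The other 10 genes had a lower mean in 2 and a higher mean in 8, with a median difference of 0.13. Acacb was the highest of them, with a difference of 0.91 and a limma adjusted p of 0.117. It was the 1 gene of these 10 with an unadjusted p under 0.05. Over all 19 genes such a p was reached by 6 with a lower mean, all of them targets, and 1 with a higher mean, against 5.46% and 4.99% of all tested genes.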
